A study of Homo sapiens with 64 samples.

Results

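The effect of labeling with CFSE was measured 1 day after seeding in DLD1, a colorectal cancer cell line, by comparing 4 labeled with 4 unlabeled RNA sequencing libraries. These 8 libraries were taken by their titles from the 64 of the series. The labeled cells (CFSE d1) had been incubated with carboxyfluorescein succinimidyl ester, and the unlabeled cells (DMSO d1) had received the solvent DMSO in the same step. Both groups grew as spheroids in non-adherent culture without serum, came from the same line and have no other treatment in the labels. They were bulk populations, without the sort into label-retaining cells (LRCs) and cycling cells that the other cultures of the study went through. The study included them to find off-target effects of the dye. Of the other libraries, 8 were the same labeled and unlabeled cells at the later time (CFSE d5 and DMSO d5 in the labels, day 6 in the study's methods) and 48 were sorted cells of 6 lines. The methods describe biological quadruplicates, but the labels do not tie a replicate to a culture, so the p-values measure the spread between these libraries, part of which may be technical.

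CFSE enters cells as an uncharged diacetate ester, is cut by intracellular esterases and then binds amine groups of proteins, where it stays until cell division dilutes it. Cells hold several systems that answer to damaged proteins and reactive compounds. The heat shock response, driven by HSF1, raises chaperones when unfolded proteins accumulate in the cytosol. The unfolded protein response does so for the endoplasmic reticulum, and NRF2 raises detoxifying enzymes when reactive compounds modify its repressor KEAP1. SREBP2 raises the enzymes of cholesterol synthesis when membrane sterol is low, which makes them a common readout in cells grown without serum. DLD1 cells lack functional APC, so Wnt target genes such as AXIN2 and NOTUM are active in them without a ligand.

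Between 12738718 and 17160555 reads were counted on genes in the 8 libraries. Levels are given as CPM, the reads of a gene scaled to a common library size. The libraries did not fall into a labeled and an unlabeled group alone. To place them, each was projected on the line that runs from the CFSE d1 mean, at 0, to the CFSE d5 mean, at 1, over 14765 genes. A CFSE library was left out of its own group's mean when it was placed, so the 4 positions of such a group need not average 0 or 1. The CFSE d1 libraries lay at -0.21, -0.02, 0.25 and 0.28, and DMSO d1 replicates 1 to 3 at 0.27, 0.33 and 0.41. DMSO d1 replicate 4 lay at 0.91, inside the range of 0.81 to 1.23 of the 8 later libraries and apart from its own group. Its nearest library was DMSO d5 replicate 3, with a Pearson's r of 0.992 across genes, against a mean of 0.963 with DMSO d1 replicates 1 to 3. Whether this library carries the wrong day or grew differently was not tested, and results are given without it (7 libraries) and with it (8 libraries).

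**Figure D1:**
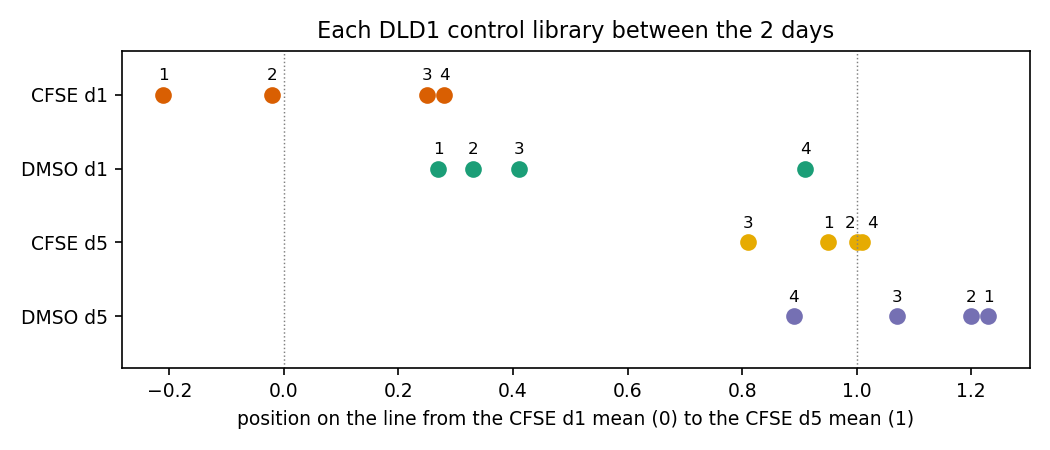
Position of each of the 16 DLD1 control libraries on the line from the CFSE d1 mean (0) to the CFSE d5 mean (1), each CFSE library left out of its own group's mean, with groups in rows and replicate numbers above the points. DMSO d1 replicate 4, at 0.91, sits among the later libraries, and CFSE d1 replicates 1 and 2, at -0.21 and -0.02, lie apart from replicates 3 and 4, at 0.25 and 0.28.

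A further division ran through the labeled group. Replicates 1 and 2 of CFSE d1 differed by a mean chi-square of 5.94 per gene and replicates 3 and 4 by 4.09, where sampling noise alone gives about 1, but across these pairs it was 54.2 to 70.8. In DMSO d1, replicates 1 and 2 differed by 2.19, and replicate 3 differed from them by 12.1 and 12.3. The labels give no batch, and nothing in them says what the numbers share. Same-numbered labeled and unlabeled libraries deviated together from their group means, with correlations of 0.163, 0.261 and 0.301 for numbers 1, 2 and 3. Unlike pairs within numbers 1 and 2 also correlated, at 0.116 (CFSE 1 with DMSO 2) and 0.086 (CFSE 2 with DMSO 1). Pairs of number 3 with 1 or 2 gave -0.265 to -0.158. Deviations from a group mean cancel within the group, so these negative values follow from the positive ones and add no evidence. Over 8 libraries CFSE d1 replicate 4 correlated with DMSO d1 replicate 3 at 0.258. The values thus set numbers 1 and 2 apart from 3 more clearly than they pair single numbers. The dye was therefore also compared within the numbers, as CFSE d1 replicates 1 and 2 minus DMSO d1 replicates 1 and 2, and as CFSE d1 replicates 3 and 4 minus DMSO d1 replicate 3.

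Without DMSO d1 replicate 4, 1785 of 14230 genes passed an adjusted p-value of 0.05 (edgeR's quasi-likelihood test, Benjamini-Hochberg adjustment over all genes tested). Of all genes tested, 722 (5.07%) were higher and 1063 (7.47%) lower with CFSE, and 110 and 277 of these passed a log2 fold change of 1. With all 8 libraries 1597 of 14341 genes passed, 762 (5.31%) higher and 835 (5.82%) lower. The 1243 genes called both ways made up 69.6% of the calls from 7 libraries and 77.8% of those from 8, and all kept their direction. As the 7 libraries are part of the 8, the shared direction was largely fixed in advance. A block for the number, in which the libraries numbered 1 to 3 form pairs, gave 3273 calls over the 7 libraries, 1530 (10.8%) higher and 1743 (12.2%) lower. CFSE d1 replicate 4, alone in its number, did not inform the dye estimate of that fit, which rests on numbers 1 to 3. Leaving that library out without the block gave 2916 calls. DESeq2 called 3441, 1743 higher and 1698 lower.

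The number of calls rested on single libraries. Over 7 libraries it was 374 and 528 without CFSE d1 replicates 1 and 2, and 3203 and 2916 without replicates 3 and 4. It was 0, 1 and 443 without DMSO d1 replicates 1, 2 and 3. At 0 calls, 3322 genes still had an unadjusted p-value under 0.05 in edgeR. Over 8 libraries, 5 and 6 genes passed without CFSE d1 replicates 1 and 2, and 48, 35 and 233 without DMSO d1 replicates 1, 2 and 3. Over 7 libraries, no pathway list described below kept a call without DMSO d1 replicate 1 or without replicate 2. Over 8 libraries, the immediate early, NF-kB and Wnt lists each kept 1 higher call in both cases. There cholesterol synthesis kept 1 lower call without replicate 1, and the ATF4 targets 1 higher call without replicate 2. The called genes were chosen on these libraries, so their differences within the numbers are a description. Over 7 libraries the groups did not overlap for all 722 higher and 1061 of the 1063 lower genes. A lack of overlap in a called gene therefore adds nothing to its call. Of all genes, 17.2% were higher and 18.9% lower without overlap. The median difference of the higher genes was 0.73 log2 CPM within numbers 1 and 2 and 0.40 within numbers 3 and 4, and that of the lower genes -0.93 and -0.51. It was larger within numbers 1 and 2 for 619 of the higher and 953 of the lower genes. Within numbers 1 and 2 alone, 30.6% of genes passed as higher and 29.7% as lower, and within numbers 3 and 4 alone, where the single unlabeled library was assumed to vary like the labeled ones, 15.6% and 16.5%.

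**Figure D2:**
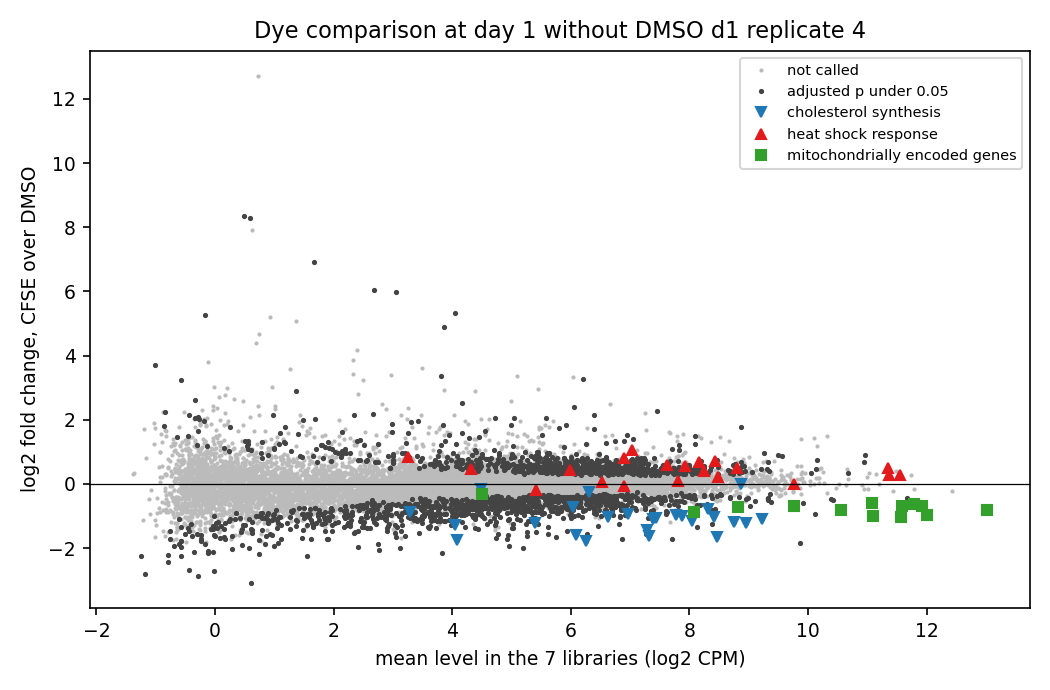
Log2 fold change of CFSE over DMSO against the mean level in log2 CPM for the 14230 genes tested in 7 libraries, with called genes in dark and 3 gene lists in color. Members of cholesterol synthesis and the mitochondrially encoded genes lie below 0, with medians of -1.08 and -0.71, and those of the heat shock response mostly above, with a median of 0.46.

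The highest fold changes belonged to genes with little expression in unlabeled cells, and they came mainly from CFSE d1 replicates 1 and 2. HSPA6, a chaperone of the HSP70 family that is nearly silent until proteins unfold, stood at 155, 127, 11.7 and 7.16 CPM in CFSE d1 replicates 1 to 4. In DMSO d1 replicates 1 to 4 it stood at 1.72, 1.25, 0.517 and 0.296 CPM. Every labeled library was thus above every unlabeled library, and replicates 1 and 2 of the labeled group were far above replicates 3 and 4. The gene (GRCh37, chr1:161494330-161496684, plus strand) had a log2 fold change of 5.98 (SE 1.32, adjusted p = 0.0309, edgeR) over 7 libraries and 6.30 (SE 1.12, adjusted p = 0.0223) over 8. Its differences within the numbers were 6.45 and 3.84 log2 CPM. Reads that it shares with near-identical HSP70 genes and pseudogenes could not be assigned, so its level is uncertain.

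ARC, an immediate early gene known from neurons, stood at 138, 140, 4.96 and 2.98 CPM with CFSE and 1.37, 1.32, 0.517 and 0.296 CPM with DMSO. RASD1, a glucocorticoid-inducible small GTPase, stood at 83.8, 74.2, 2.63 and 1.90 CPM with CFSE and at most 0.416 CPM with DMSO. SNAI1, a transcriptional repressor of the epithelial state, stood at 287, 258, 11.1 and 8.68 CPM against 3.27, 4.43, 2.78 and 2.13 CPM. As with all 722 genes called higher over 7 libraries, these 3 did not overlap between the groups, which adds no support. RASD1 stayed under 10 counts in every DMSO d1 library and passed the count filter through the labeled group alone. In each of the 3 genes the labeled replicates 1 and 2 were more than 10 times replicates 3 and 4. Their log2 fold changes over 7 libraries were 6.04 (SE 1.60), 6.93 (SE 1.75) and 5.33 (SE 1.40), with adjusted p-values of 0.0442, 0.0404 and 0.0435 (edgeR).

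Genes of secreted proteins also stood near the top. CCN2, a matricellular target of YAP and SRF, stood at 199, 181, 10.1 and 9.76 CPM with CFSE and 4.10, 3.53, 2.26 and 1.78 CPM with DMSO, a log2 fold change of 4.90 (SE 1.25, adjusted p = 0.0413, edgeR, 7 libraries). THBS1, which encodes thrombospondin, stood at 525, 466, 50.4 and 45.3 CPM with CFSE and 26.9, 26.5, 30.2 and 104 CPM with DMSO. For THBS1 DMSO d1 replicate 4 was above CFSE d1 replicates 3 and 4, and the call held over 7 libraries (log2 fold change 3.28, adjusted p = 0.0498) but not over 8 (2.55, adjusted p = 0.0717). DKK1, a secreted Wnt inhibitor, stood at 77.2, 80.6, 12.0 and 16 CPM against 4.87, 5.75, 2.91 and 2.31 CPM, with a log2 fold change of 3.35 (SE 0.75, adjusted p = 0.0317).

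Other genes near the top had other roles. AQP3, a water and glycerol channel, stood at 204, 216, 78.6 and 81.5 CPM with CFSE and 24.5 to 30 CPM in the 4 DMSO d1 libraries, with a log2 fold change of 2.39 (SE 0.40, adjusted p = 0.0164, edgeR, 7 libraries). Every labeled library was thus well above the unlabeled range. SLC6A8, the creatine transporter, and CPA4, a secreted carboxypeptidase, had log2 fold changes of 2.51 (adjusted p = 0.049) and 2.91 (adjusted p = 0.021). GADD45G and SOCS3, a growth arrest protein and an inhibitor of cytokine signaling, were called over 8 libraries only, with log2 fold changes of 4.42 and 3.62. In labeled replicates 3 and 4 they stood at 0.875 to 2.19 CPM, within the unlabeled range of 0.582 to 2.20 CPM. Over 7 libraries the block by number gave adjusted p-values of 0.0268 and 0.0208 for them, against 0.0656 and 0.0723 without it.

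**Figure D3:**
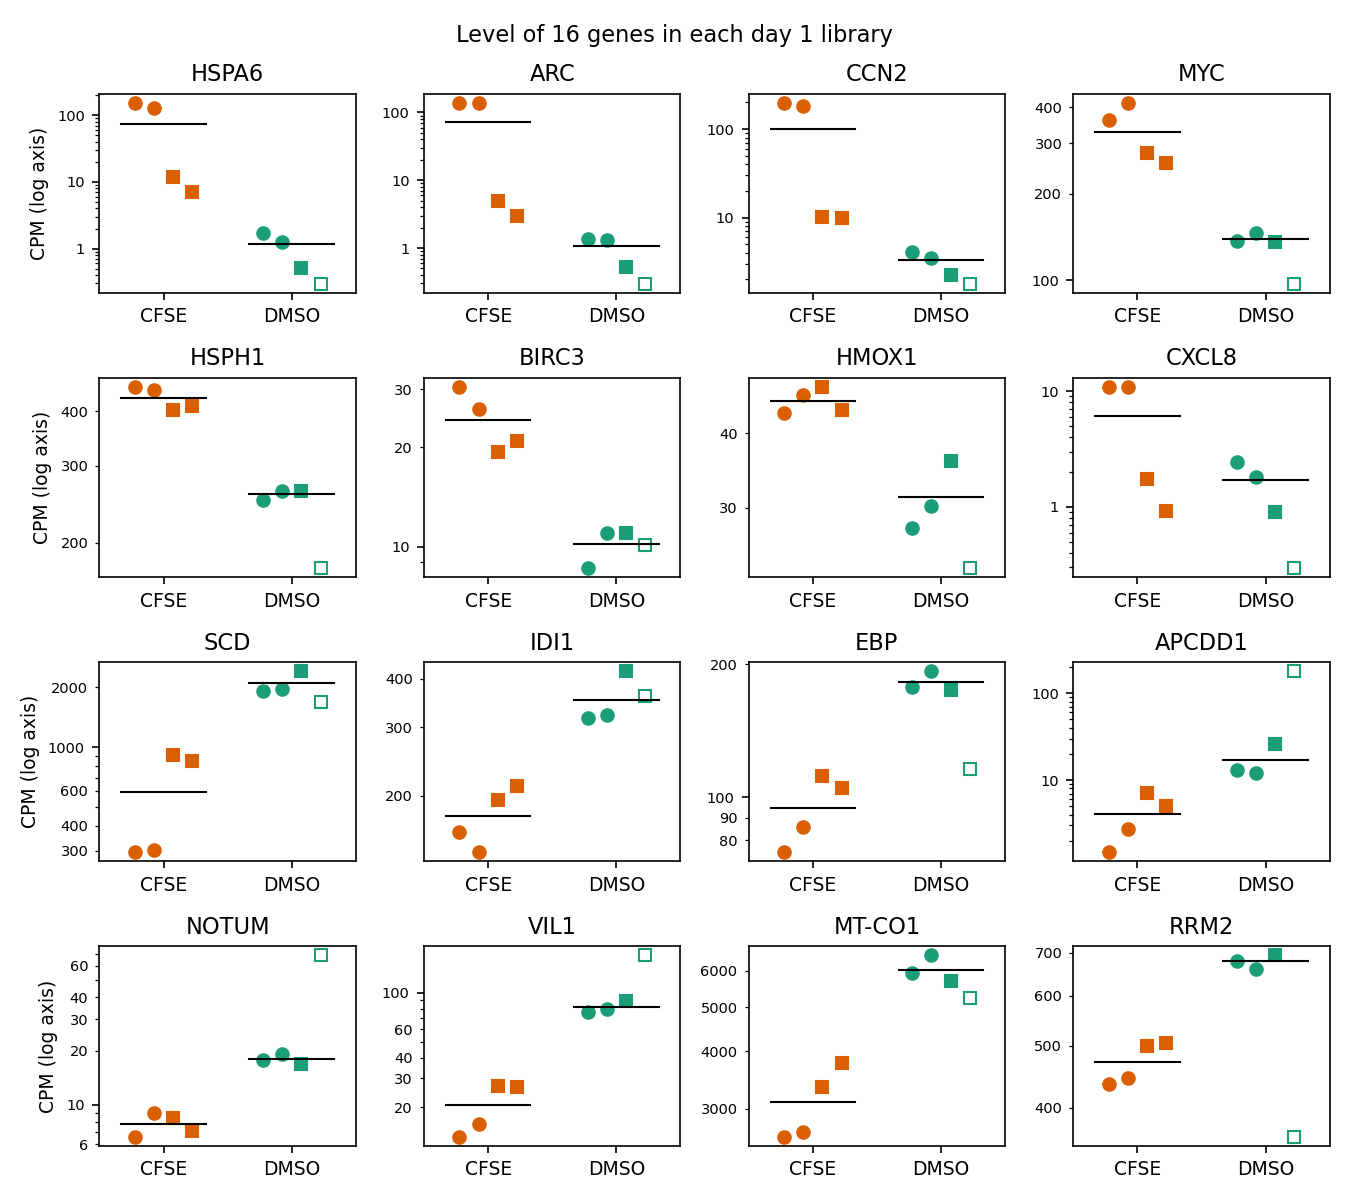
CPM of 16 genes in each day 1 library on log axes that differ between panels, with labeled libraries on the left and unlabeled on the right, circles for replicates 1 and 2, squares for 3 and 4, and an open square for DMSO d1 replicate 4. Black lines are means, without that library for DMSO. HSPA6 stands at 155 and 127 CPM in CFSE d1 replicates 1 and 2 and at 11.7 and 7.16 CPM in 3 and 4, while HSPH1 stands between 402 and 455 CPM in all 4.

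Part of the heat shock response was higher with the dye. Of 20 members tested, 8 passed as higher and none as lower over 7 libraries, against 5.07% and 7.47% of all genes, and the same numbers passed over 8. With single libraries left out the count was 2 and 3 without CFSE d1 replicates 1 and 2, 9 and 11 without replicates 3 and 4, and 0, 0 and 2 without DMSO d1 replicates 1, 2 and 3. Among all genes the higher calls in the same fits were 124 and 159, 1557 and 1443, and 0, 0 and 153. Between 14048 and 14129 genes were tested in each. Of the 20, 17 had a positive fold change. Their median log2 fold change was 0.46, where that of all genes was 0.00. The groups did not overlap for 12 members, all higher with CFSE, against 17.2% of all genes that were higher and 18.9% that were lower without overlap. The median difference was 0.52 log2 CPM within numbers 1 and 2 and 0.38 within numbers 3 and 4. HSPA6 is not in the list and adds nothing to these counts.

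HSPH1, an HSP110 chaperone that recycles HSP70, stood at 455, 448, 402 and 411 CPM with CFSE and 250, 263, 263 and 175 CPM with DMSO. Its mean was 429 ± 26.6 CPM (SD, n = 4) against 259 ± 7.81 CPM (SD, n = 3), and the log2 fold change 0.72 (SE 0.08, adjusted p = 0.00961, edgeR, 7 libraries). AHSA1, which activates the ATPase of HSP90, stood at 237, 260, 220 and 224 CPM against 151, 163, 148 and 120 CPM, with a log2 fold change of 0.60 (SE 0.09, adjusted p = 0.0135). For both genes each labeled library was above each unlabeled library, and the labeled pairs differed little. The classical stress-inducible members were less even. HSPA1A stood at 17.2, 17.8, 8.61 and 7.10 CPM against 7.25, 8.11, 5.69 and 7.52 CPM, and DNAJB1, its HSP40 partner, at 365, 392, 212 and 209 CPM against 204, 225, 167 and 187 CPM. Their log2 fold changes of 0.84 and 0.56 were not called (adjusted p = 0.118 and 0.137), but were with the block by number, at 1.0 and 0.65 (adjusted p = 0.0234 and 0.0240).

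HSF1 binds inverted repeats of the letters GAA and TTC. The core GAANNTTC, which reads the same on both strands, was searched in RefSeq promoters (GRCh38.p14, 250 bases before to 50 after the start). It was present in 6.87% of 27305 promoters, in 6 of the 18 heat shock members that had one, and in that of HSPA6. Shown are the promoter of the most inducible chaperone and that of CHORDC1, an HSP90 co-chaperone, which held the most matches of the list, with matches in capitals (HSPA6, chr1:161524290-161524589, plus strand; CHORDC1, chr11:90223000-90223299, minus strand).
HSPA6: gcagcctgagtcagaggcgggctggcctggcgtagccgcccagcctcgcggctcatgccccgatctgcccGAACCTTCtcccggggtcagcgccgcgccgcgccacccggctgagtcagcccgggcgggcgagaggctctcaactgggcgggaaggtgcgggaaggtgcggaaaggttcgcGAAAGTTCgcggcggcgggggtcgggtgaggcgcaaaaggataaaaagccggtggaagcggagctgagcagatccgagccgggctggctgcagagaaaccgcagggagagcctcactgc
CHORDC1: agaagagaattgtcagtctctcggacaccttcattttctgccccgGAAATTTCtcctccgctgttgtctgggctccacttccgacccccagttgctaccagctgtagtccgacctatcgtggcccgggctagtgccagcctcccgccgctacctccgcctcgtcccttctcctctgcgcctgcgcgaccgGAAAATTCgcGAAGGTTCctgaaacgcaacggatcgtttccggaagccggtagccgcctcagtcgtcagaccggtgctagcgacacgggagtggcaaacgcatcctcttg
The HSPA6 window held 2 matches and the CHORDC1 window 3. CHORDC1 stood at 79.6, 75.1, 66.4 and 67.7 CPM with CFSE and 54.1, 52.9, 52.3 and 35.6 CPM with DMSO, with a log2 fold change of 0.43 (SE 0.09, adjusted p = 0.0289, edgeR, 7 libraries). It was chosen for its promoter after its values were seen. HSPH1 has no match in its window, and a match is no evidence of binding.

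Other arms of protein quality control held fewer calls of a higher level. Of 30 proteasome subunits 2 passed as higher and none as lower (median 0.14), where 5.07% of all genes were higher, and 6 as higher with the block, where 10.8% of all genes were. The higher ones were PSMD12, at 210, 204, 134 and 147 CPM against 110, 110, 118 and 90.4 CPM, and PSMD6. Of 20 genes of the endoplasmic reticulum unfolded protein response 2 passed as higher and 5 as lower, against 5.07% and 7.47% of all genes, with a median of -0.06. PDIA4, a disulfide isomerase of that compartment, stood at 333, 365, 417 and 382 CPM against 547, 595, 522 and 508 CPM, with a log2 fold change of -0.58 (SE 0.10, adjusted p = 0.0181, edgeR). CALR, a calcium-binding chaperone there, had a log2 fold change of -0.51 (SE 0.08, adjusted p = 0.0158). HSPA5, the sensor-bound chaperone BiP, stood at 1647, 1836, 1088 and 1054 CPM against 984, 1051, 939 and 918 CPM. Its log2 fold change of 0.49 was not called (adjusted p = 0.117), but was with the block at 0.58 (adjusted p = 0.0343). PDIA4 and CALR thus went the opposite way to HSPH1 and AHSA1.

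Of 24 targets of ATF4, the factor of the integrated stress response, 2 passed as higher and 2 as lower (median 0.00), against 5.07% and 7.47% of all genes. SLC3A2 and SLC7A5, the chains of the large neutral amino acid transporter, were the higher ones. SLC3A2 stood at 1318, 1501, 1469 and 1444 CPM against 836, 888, 808 and 645 CPM, an even difference with a log2 fold change of 0.75 (SE 0.09, adjusted p = 0.00961, edgeR, 7 libraries). SLC7A5 had a log2 fold change of 0.46 (SE 0.11, adjusted p = 0.0389). ASNS and DDIT3, an asparagine synthetase and the factor CHOP, overlapped between the groups, with log2 fold changes of -0.21 and 0.20 (adjusted p = 0.221 and 0.551). With the block 6 of the ATF4 targets passed as higher and 4 as lower, against 10.8% and 12.2% of all genes.

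Of 32 targets of NRF2 tested, 2 passed as higher and 3 as lower over 7 libraries, with a median of 0.01, not far from the 5.07% and 7.47% of all genes, and 4 and 1 over 8. HMOX1, which degrades heme, stood at 43.2, 46.3, 47.8 and 43.7 CPM with CFSE and 27.8, 30.2, 36.0 and 23.8 CPM with DMSO, a log2 fold change of 0.52 (SE 0.11, adjusted p = 0.0301, edgeR). PIR, an iron-binding nuclear protein, was lower at 2.87, 2.72, 5.11 and 4.66 CPM against 9.51, 9.08, 10.7 and 11.5 CPM, with a log2 fold change of -1.35 (SE 0.24, adjusted p = 0.0195). TXNRD1 and GCLM, of the thioredoxin and glutathione systems, were 0.98 and 1.09 log2 CPM higher within numbers 1 and 2 and differed by -0.01 and 0.00 within numbers 3 and 4. They were not called over 7 libraries (adjusted p = 0.0723 and 0.0739), though TXNRD1 was over 8 (0.67, adjusted p = 0.0489), and NQO1, the usual marker of this pathway, differed by -0.15 (SE 0.13, adjusted p = 0.419). At the later time 12 of the targets rose with the dye and none fell, where 5.41% and 5.61% of all genes did.

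The signaling genes with the highest median, the immediate early genes, were carried by CFSE d1 replicates 1 and 2. Their median log2 fold change over 7 libraries was 1.11, the median difference 1.46 log2 CPM within numbers 1 and 2 and 0.38 within numbers 3 and 4. Of 20 tested, 1 passed as higher and 1 as lower over 7 libraries, where 5.07% and 7.47% of all genes did. As higher, 4 passed over 8 libraries (5.31% of all genes), but 14 with the block (10.8% of all genes). FOS stood at 710, 656, 35.4 and 38.2 CPM with CFSE and 83.3, 79.3, 27.5 and 24.7 CPM with DMSO. EGR1 stood at 1204, 1003, 224 and 228 CPM against 475, 429, 226 and 70.7 CPM. In both genes the unlabeled replicates 1 and 2 were also above replicate 3. Log2 fold changes were 2.50 for FOS (adjusted p = 0.139, and 0.0353 with the block) and 0.81 for EGR1 (adjusted p = 0.365).

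MYC was the member that rose over 7 libraries, and it was higher within both sets of numbers. It stood at 362, 415, 278 and 255 CPM with CFSE and 137, 146, 136 and 97.3 CPM with DMSO, a log2 fold change of 1.22 (SE 0.17, adjusted p = 0.0124, edgeR, 7 libraries) and 1.35 (SE 0.19, adjusted p = 0.0147) over 8. DUSP6, the phosphatase that ERK induces to limit itself, was the member that fell, from 125, 122 and 111 CPM in DMSO d1 replicates 1 to 3 to 81.3, 79.3, 76.7 and 81.4 CPM. DMSO d1 replicate 4, at 59.7 CPM, was below the labeled libraries, and with it the call was lost (log2 fold change -0.59 over 7 libraries, adjusted p = 0.0117, and -0.38 over 8, adjusted p = 0.223).

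Of 10 NF-kB targets tested, 4 passed as higher and none as lower over 7 libraries (median 0.67), where 5.07% and 7.47% of all genes did. As higher, 2 passed over 8 libraries (5.31% of all genes) and 7 with the block (10.8% of all genes). BIRC3, an inhibitor of apoptosis, stood at 30.5, 26.1, 19.4 and 20.9 CPM against 8.62, 11, 11 and 10.1 CPM, with a log2 fold change of 1.24 (SE 0.19, adjusted p = 0.0140, edgeR). ICAM1, an adhesion molecule, stood at 95.7, 102, 90.7 and 85.9 CPM against 67.3, 76.1, 71.1 and 97.2 CPM, and was called over 7 libraries (0.38, adjusted p = 0.0366) but not over 8 (0.27, adjusted p = 0.155). CXCL8, the chemokine interleukin-8, stood at 10.9, 10.9, 1.75 and 0.922 CPM against 2.44, 1.80, 0.905 and 0.296 CPM, and its log2 fold change of 1.80 was called only with the block (2.05, adjusted p = 0.0204, against 0.160). The YAP and SRF targets had 2 higher and 2 lower of 16 tested (median 0.30), against 5.07% and 7.47% of all genes. Over 8 libraries they had 4 and 1, against 5.31% and 5.82%.

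**Figure D4:**
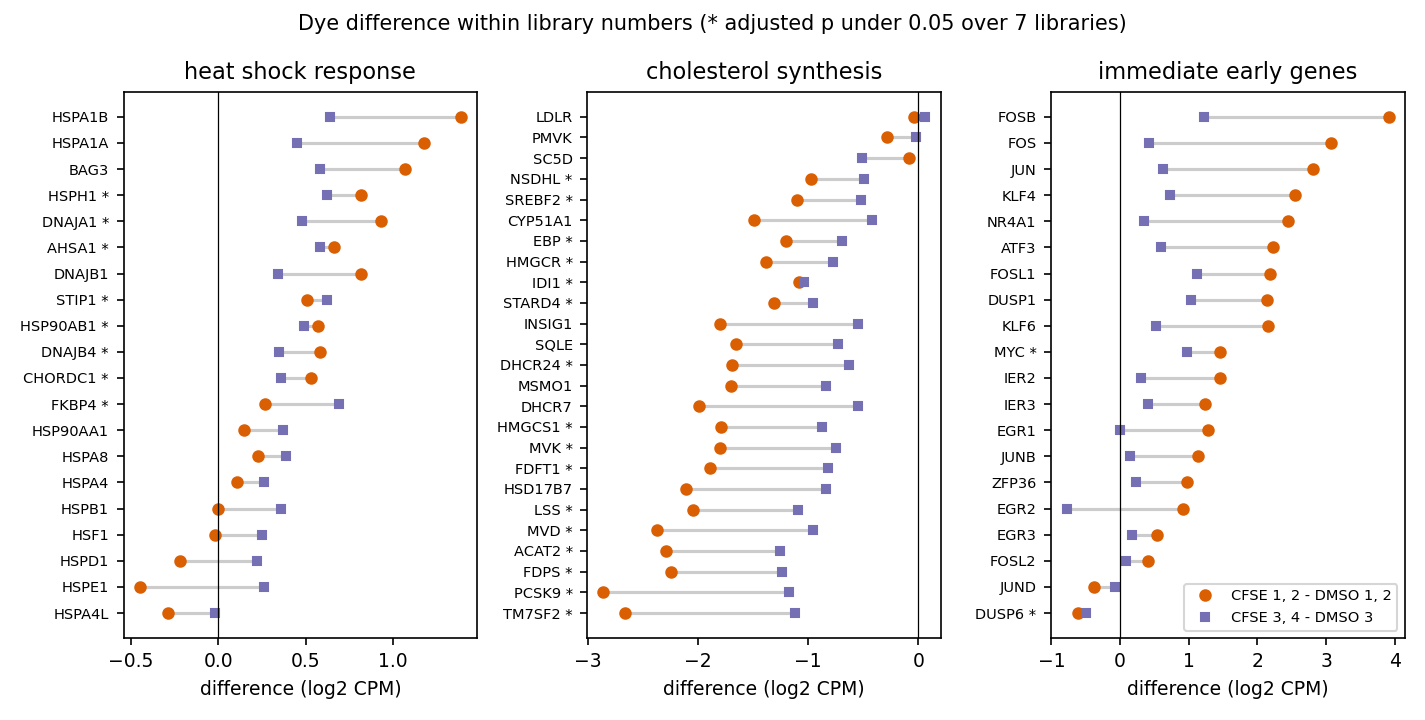
Difference in log2 CPM between labeled and unlabeled libraries for each tested member of 3 lists, within numbers 1 and 2 (circles) and within numbers 3 and 4 (squares), with members called over 7 libraries starred. Immediate early genes differ more within numbers 1 and 2 (median 1.46 against 0.38), while the heat shock medians are 0.52 and 0.38 and those of cholesterol synthesis -1.70 and -0.77.

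Most enzymes of cholesterol synthesis fell with the dye. Of 25 members, 16 passed as lower and none as higher over 7 libraries, against 7.47% and 5.07% of all genes, and 17 and none over 8. With the block 22 passed as lower, where 12.2% of all genes did. The count was 5 and 6 without CFSE d1 replicates 1 and 2, 22 and 21 without replicates 3 and 4, and 0, 0 and 2 without DMSO d1 replicates 1, 2 and 3. Among all genes the lower calls in the same fits were 250 and 369, 1646 and 1473, and 0, 1 and 290, of 14048 to 14129 tested. The list's median and those below are of its members. Their median log2 fold change was -1.08 over 7 libraries and -1.05 over 8. For 22 of them every labeled library was below DMSO d1 replicates 1 to 3, where this held for 18.9% of all genes. The median difference was -1.70 log2 CPM within numbers 1 and 2 and -0.77 within numbers 3 and 4. Their summed level was 2541, 2631, 5018 and 5025 CPM with CFSE and 7552, 7930, 8496 and 7097 CPM with DMSO, so that here DMSO d1 replicate 4 stood with its group.

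HMGCS1, which makes the precursor HMG-CoA, stood at 194, 194, 436 and 460 CPM with CFSE and 671, 667, 821 and 509 CPM with DMSO. Its log2 fold change was -1.17 (SE 0.32, adjusted p = 0.0479, edgeR) over 7 libraries and -1.05 (adjusted p = 0.0535) over 8. IDI1, the isopentenyl diphosphate isomerase, was more even over the libraries, at 161, 143, 195 and 212 CPM against 318, 322, 419 and 362 CPM. Its log2 fold change was -1.0 (SE 0.16, adjusted p = 0.0148) and its differences within the numbers -1.08 and -1.04. EBP, a sterol isomerase, stood at 75.1, 85.8, 112 and 105 CPM against 178, 193, 175 and 116 CPM, with a log2 fold change of -0.95 (SE 0.14, adjusted p = 0.0134). SCD, the stearoyl-CoA desaturase of fatty acid synthesis (GRCh37, chr10:102106990-102124583, plus strand), is outside the list and fell further, from 1919, 1953, 2417 and 1687 CPM to 294, 303, 912 and 851 CPM. Its log2 fold change was -1.84 (SE 0.41, adjusted p = 0.0315).

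SREBP2, the factor that drives these enzymes, is encoded by SREBF2, itself a member of the list. SREBF2 stood at 197, 211, 313 and 303 CPM with CFSE and 423, 454, 441 and 635 CPM with DMSO, with a log2 fold change of -0.79 (SE 0.17, adjusted p = 0.0296, edgeR, 7 libraries). A form of the sterol regulatory element, TCACNCCAC on either strand, was present in 1.15% of 27305 RefSeq promoters and in 1 of the 18 of the list that had one, that of SREBF2 (GRCh38.p14, chr22:41832855-41833154, plus strand). It is shown with the match in capitals, and was chosen after its values were seen.
SREBF2: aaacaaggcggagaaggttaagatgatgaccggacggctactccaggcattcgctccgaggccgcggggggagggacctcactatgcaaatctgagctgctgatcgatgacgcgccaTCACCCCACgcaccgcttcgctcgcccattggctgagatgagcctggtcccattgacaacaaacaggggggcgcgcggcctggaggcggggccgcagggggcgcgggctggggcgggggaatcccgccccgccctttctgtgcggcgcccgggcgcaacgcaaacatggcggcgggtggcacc
Sites of other spelling or outside these windows were not searched.

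In the later libraries the list did not follow. There 1 member passed as higher and 1 as lower, with a median log2 fold change of 0.00, where 5.41% of all 13817 genes tested were higher and 5.61% lower with CFSE. The dye effect itself differed between the days for IDI1, EBP and SCD. Day 1 minus the later day gave log2 differences of -0.94 (adjusted p = 0.0452), -1.13 (adjusted p = 0.0319) and -1.82 (adjusted p = 0.0456) in one edgeR model over the 16 libraries. These held without replicate 4 of both DMSO groups, at -0.87, -1.29 and -1.84 (adjusted p = 0.0331, 0.00511 and 0.0312). For HMGCS1 the difference of -1.23 did not pass over the 16 libraries (adjusted p = 0.0785) but did without these, at -1.37 (adjusted p = 0.0404).

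Transcripts encoded by the mitochondrial genome were lower in the labeled libraries than in DMSO d1 replicates 1 to 3. Of 13 genes, all subunits of the respiratory chain or the ATP synthase, 12 passed as lower and none as higher over 7 libraries (median -0.71), and 2 as lower over 8 (median -0.61). Of all genes, 7.47% were lower over 7 libraries and 5.82% over 8. Over 7 libraries the count was 3 and 7 without CFSE d1 replicates 1 and 2 and 0, 0 and 2 without DMSO d1 replicates 1, 2 and 3. Among all genes the lower calls in the same fits were 250 and 369, and 0, 1 and 290. MT-ND1, of complex I, stood at 1532, 1460, 1656 and 1870 CPM with CFSE and 3402, 3494, 2877 and 1411 CPM with DMSO, with a log2 fold change of -1.01 (SE 0.12, adjusted p = 0.00961, edgeR, 7 libraries) and -0.77 (adjusted p = 0.0710) over 8. MT-CO1, of complex IV, stood at 2605, 2662, 3340 and 3768 CPM against 5929, 6490, 5691 and 5235 CPM and was called both ways, at -0.97 (SE 0.14, adjusted p = 0.0135) and -0.91 (adjusted p = 0.0197). In sum these genes took 20772 to 32895 CPM with CFSE, 44515 to 49487 CPM in DMSO d1 replicates 1 to 3 and 28213 CPM in replicate 4. As the unlabeled library 4 lay within the labeled range, the result holds for the comparison without it. Neighboring genes of this genome overlap, and reads aligned outside annotated genes made up 12.1% to 14.8% of reads with CFSE, 10.7% to 13.6% in DMSO d1 replicates 1 to 3 and 8.96% in replicate 4. What these shares contribute to the result was not tested.

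Several Wnt targets and genes of the intestinal epithelium were lower with the dye. Of 15 Wnt targets 6 passed as lower and 1, MYC, as higher over 7 libraries (median -0.52), 4 and 1 over 8. Of all genes, 7.47% were lower and 5.07% higher over 7 libraries, and 5.82% and 5.31% over 8. NOTUM, a secreted Wnt deacylase, stood at 6.63, 9.03, 8.39 and 7.10 CPM with CFSE and 17.9, 19.3, 16.9 and 68.6 CPM with DMSO, a log2 fold change of -1.22 (SE 0.15, adjusted p = 0.00961, edgeR, 7 libraries). APCDD1, an inhibitor of Wnt signaling at the membrane, stood at 1.47, 2.72, 7.07 and 4.99 CPM against 12.9, 11.9, 25.8 and 180 CPM, with log2 fold changes of -2.05 over 7 libraries and -3.79 over 8. For both genes the labeled libraries were below the others, and DMSO d1 replicate 4 was far above all.

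VIL1, which encodes villin of the brush border, stood at 13.2, 15.8, 26.9 and 26.4 CPM with CFSE and 76.8, 80.3, 89.9 and 170 CPM with DMSO. Its log2 fold change was -2.01 (SE 0.24, adjusted p = 0.00961, edgeR) over 7 libraries and -2.32 (SE 0.32, adjusted p = 0.0147) over 8. CDX2, the intestinal identity factor, stood at 52.6, 56.8, 62 and 59.4 CPM against 82.5, 84.1, 85.2 and 325 CPM, and was called over 7 libraries (-0.55, SE 0.09, adjusted p = 0.0147) but not over 8 (-1.30, SE 0.42, adjusted p = 0.0682). In these genes the group means moved further apart with DMSO d1 replicate 4 while the spread grew. CDH17, an intestinal cadherin, fell, with log2 fold changes of -1.16 (adjusted p = 0.0135) over 7 libraries and -2.71 (adjusted p = 0.0450) over 8, with 354 CPM in that library against 32.8 to 49.8 CPM in DMSO d1 replicates 1 to 3.

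The label DLD1, an epithelial line, was checked on 13 epithelial markers. All were detected, EPCAM at 685 to 964 CPM, KRT8 at 2076 to 3177 CPM and KRT18 at 1352 to 2257 CPM in the 8 libraries. Of the 13, 4 passed as lower and none as higher over 7 libraries (median -0.23), against 7.47% and 5.07% of all genes. Among the 4 were VIL1, CDX2 and the galectin LGALS4 (-1.75, SE 0.36, adjusted p = 0.0258, edgeR). EPCAM itself differed by 0.07 (SE 0.09, adjusted p = 0.607). Further genes low with the dye were LCN12, a lipocalin, at 0.514 to 2.49 CPM against 4.92 to 9.57 CPM in DMSO d1 replicates 1 to 3, and METTL7A, a methyltransferase-like protein, at 3.16 to 6.29 CPM against 17.7 to 22.0 CPM. In DMSO d1 replicate 4 LCN12 stood at 1.54 CPM, inside the labeled range, and its call was lost over 8 libraries (log2 fold change -2.25 over 7, adjusted p = 0.0233, and -1.92 over 8, adjusted p = 0.0573). The non-coding LINC03040 stood at 4.05, 2.72, 12.6 and 14.3 CPM against 36.5, 36.7, 38.9 and 47.4 CPM (log2 fold change -2.14, SE 0.48, adjusted p = 0.0317).

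More genes of the cell cycle passed as lower than as higher with CFSE. Of 42 S-phase genes 9 passed as lower and 1, POLR1B of RNA polymerase I, as higher over 7 libraries (median -0.17). Of 54 G2/M genes 9 passed as lower and none as higher (median -0.17). Of all genes, 7.47% were lower and 5.07% higher over 7 libraries, and 5.82% and 5.31% over 8. RRM2, the small subunit of ribonucleotide reductase, stood at 436, 445, 500 and 506 CPM with CFSE and 681, 661, 694 and 360 CPM with DMSO, a log2 fold change of -0.53 (SE 0.09, adjusted p = 0.0167, edgeR, 7 libraries). MKI67, which encodes the proliferation marker Ki-67, stood at 569 to 639 CPM against 699 to 770 CPM in DMSO d1 replicates 1 to 3 and 528 CPM in replicate 4 (-0.32, SE 0.09, adjusted p = 0.0477). PCNA and CCNB1, the replication clamp and cyclin B1, differed by -0.27 and 0.09 (adjusted p = 0.0564 and 0.457). In DMSO d1 replicate 4 the S-phase genes summed to 3181 CPM, below every other day 1 library, and over 8 libraries 1 S-phase gene passed as higher, none as lower, and 1 G2/M gene as lower. RRM2 and MKI67 were not called there (-0.34 and -0.19, adjusted p = 0.259 and 0.350).

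At the later time the same lists were higher with the dye, 37 S-phase and 38 G2/M genes passing as higher and none as lower, with medians of 0.76 and 0.62, where 5.41% of all genes were higher and 5.61% lower. RRM2 and PCNA had log2 fold changes of 0.79 and 0.77 there (adjusted p = 0.0209 and 0.0148, edgeR). The test of day 1 against the later day gave -1.12 for RRM2 and -0.88 for PCNA and did not pass for either over the 16 libraries (adjusted p = 0.0567 and 0.0655). Without replicate 4 of both DMSO groups both passed, at -1.26 and -1.03 (adjusted p = 0.00523 and 0.00858).

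Of 24 p53 targets 2 passed as higher and 3 as lower (median 0.16), where 5.07% and 7.47% of all genes did. With the block 4 and 3 passed, where 10.8% and 12.2% of all genes did. CDKN1A, the cell cycle inhibitor p21, stood at 226, 236, 65.0 and 65.4 CPM with CFSE and 94.6, 90.4, 76.8 and 71.9 CPM with DMSO. The labeled libraries lay on both sides of the unlabeled ones, with a difference of 1.32 log2 CPM within numbers 1 and 2 and -0.24 within numbers 3 and 4. Its log2 fold change of 0.75 was not called (SE 0.47, adjusted p = 0.277). DDB2, a DNA damage binding protein, was lower over 7 libraries (-0.93, SE 0.18, adjusted p = 0.0234). Over 8 its call was lost (-0.71, adjusted p = 0.0959), and DMSO d1 replicate 4, at 12.1 CPM, lay within the labeled range. Of 15 BCL2 family genes 1 passed as higher, against 5.07% of all genes, and 4 with the block, against 10.8%. The 1 was the pro-apoptotic BIK, at 20, 25.8, 18.4 and 21.0 CPM against 13.7, 12.1, 12.5 and 13.7 CPM (0.73, SE 0.14, adjusted p = 0.0242).

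Esterases, which release the dye inside cells, had 0 calls over 7 libraries among the 4 tested (median -0.36, edgeR; 3 at an unadjusted p-value under 0.05, and 0 in DESeq2). CES2 stood at 38.4, 45.0, 48.8 and 48.0 CPM with CFSE and 50.8, 58.7, 56.5 and 66.9 CPM with DMSO (log2 fold change -0.31, SE 0.11, adjusted p = 0.0924). ESD stood at 51.2, 56, 78.2 and 75.9 CPM against 83.1, 79.1, 97.0 and 96.8 CPM. It passed only with the block (-0.51, adjusted p = 0.0300), under which 2 of the 4 esterases and 12.2% of all genes were lower. Without the block 5.07% of all genes were higher and 7.47% lower in edgeR, the shares to set beside each list's adjusted calls here. The unadjusted and DESeq2 counts have other backgrounds. Of all 14230 genes, 5119 had an unadjusted p-value under 0.05 in edgeR, and DESeq2 called 3441, of which 1698 were lower. Of 9 drug efflux transporters 0 passed (median -0.05, 2 at an unadjusted p-value under 0.05, and 1 in DESeq2). Of 6 metallothioneins 0 passed (median -0.68, 3 unadjusted, and 2 in DESeq2). MT2A, a zinc-binding metallothionein, stood at 78.1, 88.5, 151 and 161 CPM against 203, 204, 200 and 80.8 CPM, not called at -0.77 (adjusted p = 0.0653) but called with the block (-1.01, adjusted p = 0.0235).

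Of 20 hypoxia and glycolysis genes 2 passed as higher and 3 as lower (median 0.07). The shares of all genes, for this list and the next ones, were 5.07% higher and 7.47% lower. NDRG1, a hypoxia-induced gene, was the strongest of the higher ones at 432, 492, 421 and 432 CPM against 246, 243, 294 and 140 CPM (0.76, SE 0.10, adjusted p = 0.0124, edgeR). Of 16 interferon-stimulated genes 1 passed as lower and none as higher (median -0.14). In the Hedgehog pathway, which the study follows elsewhere in dormant cells, 2 of 6 tested genes passed as lower. GLI1, the transcriptional output of the pathway, stood at 0.295, 0.588, 0.365 and 0.434 CPM against 1.96, 1.39, 1.03 and 0.888 CPM (-1.79, SE 0.35, adjusted p = 0.0235). In every CFSE d1 library it stayed under 10 counts, so it passed the count filter through the unlabeled group alone. With 10 counts required in every library, over 8 libraries, 5 Hedgehog genes were tested and 1 passed as lower. The ligand SHH stood at 4.38 to 5.29 CPM against 6.14 to 8.66 CPM (-0.60, SE 0.17, adjusted p = 0.0490, and 0.0525 with the block).

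Several defining markers of other cell types were absent, while the summed leukocyte markers were higher with the dye. PTPRC, CD3E, MS4A1 and HLA-DRA of leukocytes and LUM of fibroblasts had no read in any of the 8 libraries. The summed level of 8 leukocyte markers was 20.4 to 48.9 CPM with CFSE, 11.2 to 16.8 CPM in DMSO d1 replicates 1 to 3 and 7.30 CPM in replicate 4. Of the 3 leukocyte markers tested, CD68, a lysosomal protein that is not confined to macrophages, passed as higher at 28.2, 26.9, 12.0 and 13.0 CPM against 4.87, 5.96, 4.46 and 2.19 CPM (1.96, SE 0.35, adjusted p = 0.0192, edgeR). ITGAM, an integrin chain of myeloid cells, stood at 14.3, 8.37, 0.875 and 0.705 CPM against 1.49, 1.39, 0.388 and 0.0592 CPM without a call (2.44, SE 1.06, adjusted p = 0.134), and CD14 at 7.37 to 11.1 CPM against 5.03 to 9.28 CPM (0.14, SE 0.20, adjusted p = 0.628). These 3 are named after their values were seen, and their part in the other results was not tested. The fibroblast markers summed to 4.11 to 6.57 CPM and the endothelial markers to 0.955 to 1.97 CPM in the 8 libraries, with no call among the 2 and 1 tested.

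**Figure D5:**
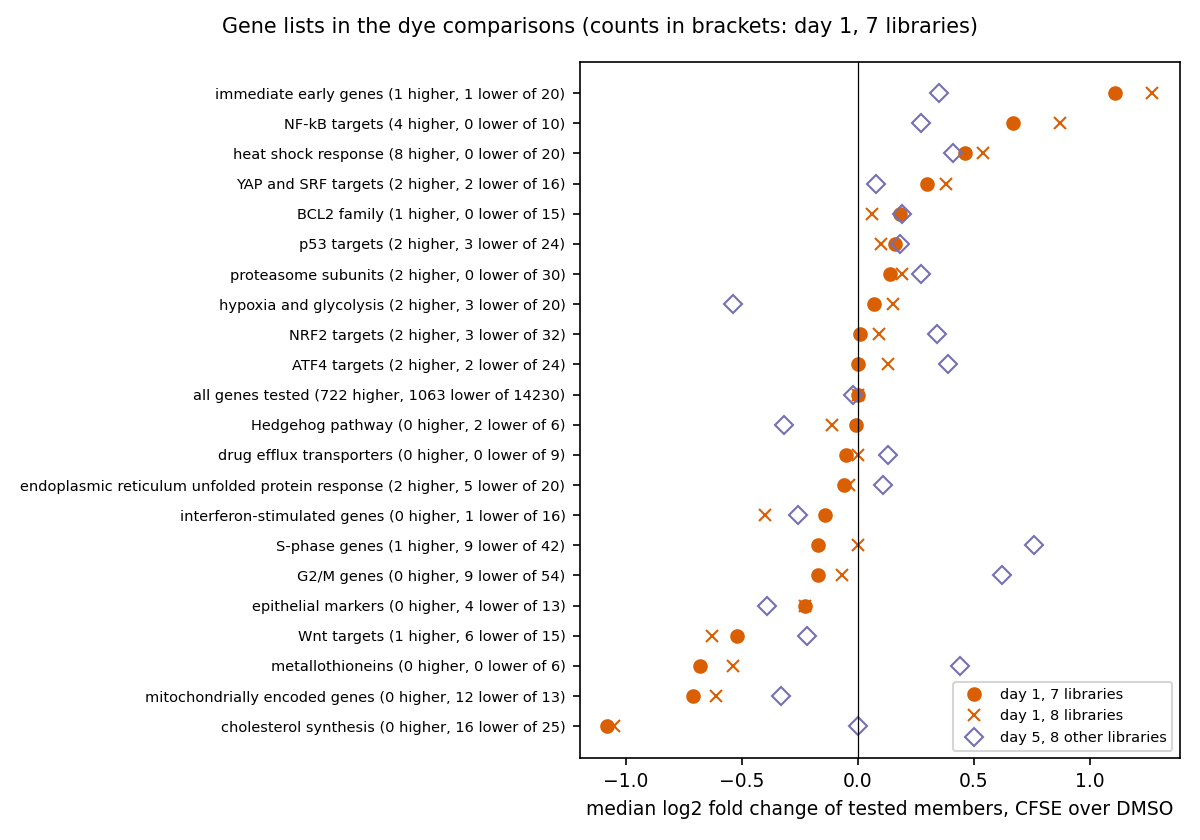
Median log2 fold change of CFSE over DMSO for each gene list with at least 5 tested members, at day 1 over 7 and over 8 libraries and at the later day, with counts of called members over 7 libraries in brackets. Cholesterol synthesis lies at -1.08 and -1.05 at day 1 and 0.00 later, and the S-phase genes at -0.17 and 0.00 at day 1 and 0.76 later.

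The dye comparison at the later time rests on 8 other libraries, the ones behind the later values given above. Of the 704 genes higher at day 1 over 7 libraries and tested at both times, 130 (18.5%) were also called higher later and 11 were called lower, where 5.53% of the genes tested at both times were called higher later and 5.34% lower. These 130 were 17.5% of the genes called higher later. Of the 1043 lower genes 180 (17.3%) were also called lower, 25.1% of the genes called lower later, and 53 (5.08%) were called higher. HSPH1, AHSA1 and SLC3A2 were called higher at both times, with later log2 fold changes of 0.83, 0.52 and 0.78, and NOTUM, VIL1 and CDX2 lower, at -1.54, -1.0 and -1.12. The dye effect differed between the days for 148 genes over the 16 libraries and for 820 without DMSO d1 replicate 4 (edgeR). Among the 148 were AQP3, 2.56 higher on the log2 scale at day 1 (adjusted p = 0.00872), and ARC, 7.41 higher (adjusted p = 0.0499). Without replicate 4 of both DMSO groups AQP3 still passed, at 2.52 (adjusted p = 0.00541), but ARC did not, at 7.04 (adjusted p = 0.0622).

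The same genes were looked up in the sorted DLD1 cells, all of them labeled, where 6.53% of 13834 genes tested were higher and 7.86% lower in LRCs than in BULK cells. Of 685 genes higher with the dye at day 1 and tested there, 48 (7.01%) were higher in LRCs, against 6.40% of genes tested in both, and 71 (10.4%) lower, against 8.17%. Of 1021 lower genes 136 (13.3%) were lower in LRCs, against 8.17%, and 71 (6.95%) higher, against 6.40%. CCNB1, itself not called at day 1, and RRM2 were lower in LRCs (log2 fold change -0.70 and -0.69). HSPH1 and VIL1 differed by -0.18 and -0.40 without a call (adjusted p = 0.188 and 0.0809, edgeR). SLC3A2, THBS1 and NDRG1 were higher in LRCs as with the dye, by 0.63, 0.58 and 0.54 (adjusted p = 0.000465, 0.00192 and 0.00589). NOTUM and MYC went against their direction with the dye, at 0.65 and -0.41 (adjusted p = 0.00176 and 0.0184). DDIT3, not called at day 1, was higher in LRCs by 1.23 (adjusted p = 0.00164).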

How the data were processed

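RNA from CFSE-labeled and unlabeled DLD1 cells was sequenced by the authors as 50-bp single-end reads from TruSeq libraries. Each library was deposited by the authors as unnormalized read counts over 54127 Ensembl genes. Their processing notes name hg19, TopHat, HTSeq and DESeq, and the strand setting and annotation are not given in the sources used here. Reads shared by near-identical or overlapping genes were not assigned. GENCODE 44 and a table of gene names gave symbols to 39260 genes and GRCh37 positions to 47098, and promoters came from RefSeq (GRCh38.p14).

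Genes that reached 10 counts in 3 or more libraries of a comparison were kept, normalized by TMM and tested two-sided with edgeR 4.0.16 (quasi-likelihood test) in R 4.3.3, with Benjamini-Hochberg adjustment over all genes and a threshold of 0.05. A standard error is the size of the log2 fold change divided by the square root of the F statistic. CPM used TMM factors over the 16 controls, and log2 CPM a prior count of 2. Depth was 12738718 to 17160555 counted reads in the 8 libraries, which leaves genes of few counts with a large counting error, and all 64 libraries held 12237225 to 20913455. No libraries were identical. Same-numbered libraries were taken as paired over numbers 1 to 3, since each pair's deviations correlated above 0.1. CFSE d1 replicate 4 had no partner in that fit and did not inform its dye estimate. CFSE d1 replicate 1 with DMSO d1 replicate 2 also passed this limit, at 0.116, so the limit does not single out the pairs. Scripts were tested on simulated data.

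Named genes were the 10 most raised and 10 most lowered called genes (mean log2 CPM of 1 or more) in each comparison, the 2 members of each pathway list with the smallest p-values, all esterases and epithelial markers, and a list of stress and cycle genes, of which 68 were checked under each alternative. Some items are not reported here. The libraries, gene lists and tests were chosen with earlier results of these data known. The alternatives tried were DESeq2 1.42.0, other normalizations and filters, blocks, all controls in one fit and single libraries left out. The fits within numbers 1 and 2, within numbers 3 and 4, and with the number pair as a covariate were chosen after seeing the data.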

Additional observations from a re-analysis of the deposited data

Results flagged for a closer look

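In 136 sets of 4 libraries, 1 for each of 68 named genes and each day 1 group, Dixon's test asked whether 1 library stood apart. Chance flags about 1 in 20 such sets when genes are picked without regard to their values. Some of the genes were picked by their calls in the fit without DMSO d1 replicate 4. Such picking favors genes whose other unlabeled libraries lie close together, so that rate does not apply to DMSO d1. Flags in DMSO d1 numbered 11, a count that cannot be set against chance. In all 11 the library was replicate 4. It stood above the others for THBS1 (104 CPM against 26.5 to 30.2), NOTUM (68.6 against 16.9 to 19.3), APCDD1 (180 against 11.9 to 25.8) and VIL1 (170 against 76.8 to 89.9). The same held for the intestinal genes CDX2 (325 CPM against 82.5 to 85.2) and CDH17 (354 against 32.8 to 49.8), and for METTL7A (44.3 against 17.7 to 22.0). It stood below the others for HSPH1 (175 CPM against 250 to 263), RRM2 (360 against 661 to 694), PCNA (204 against 328 to 331) and MT2A (80.8 against 200 to 204). In CFSE d1, NDRG1 stood at 492 CPM in replicate 2, against 421 to 432 CPM in the others.

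The dye effect at day 1 minus that at the later day passed edgeR's test of the difference, over all 16 control libraries, for 7 of the named genes. It was positive for ARC, at 7.41 on the log2 scale (adjusted p = 0.0499), and AQP3, at 2.56 (adjusted p = 0.00872). It was negative for PIR at -1.43 (adjusted p = 0.0218), DUSP6 at -1.43 (adjusted p = 0.0408), IDI1 at -0.94 (adjusted p = 0.0452), EBP at -1.13 (adjusted p = 0.0319) and SCD at -1.82 (adjusted p = 0.0456). DMSO d1 replicate 4 is part of this test, and without it and DMSO d5 replicate 4 the number of genes that differ between the days was 857 in place of 148. ARC then no longer passed, at 7.04 (adjusted p = 0.0622), while the other 6 did.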

How the results depend on the processing

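Counts of called genes moved with the fit more than with the normalization. DESeq2 called 3441 genes over 7 libraries and 3078 over 8, and all controls in one fit gave 2697 and 3173. A log2 fold change of at least 1 left 387 and 508. With single libraries left out, the counts ran from 0 to 3203 over 7 libraries and from 5 to 1922 over 8. The block by replicate number gave 3273 over 7 libraries. Over 8 it gave 1783, and there the correlation of the libraries numbered 4 was 0.068, so the numbers were not taken to pair them. Of the fits chosen after seeing the data, numbers 1 and 2 gave 8167 genes, numbers 3 and 4 gave 4298 and the number pair as a covariate 5840. The causes were not tested. Other normalizations and filters stayed within 1.5 times the counts, at 1487 to 2330 over 7 libraries and 1342 to 1964 over 8.

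The test between the days gave 820 genes without DMSO d1 replicate 4, 857 without replicate 4 of both DMSO groups and 220 with the block. The later comparison gave 2650 with the block and 1043 without DMSO d5 replicate 4, and the LRC comparison 4608 with the block. Of the named genes, CDKN1A (-0.23) and KRT18 (0.16) were among those that turned direction within numbers 3 and 4 alone. Others, by their difference in log2 CPM there, were ASNS (0.13), KRT8 (0.08), KRT20 (-0.61) and CDH1 (-0.07). The cause was not tested. With the block over 8 libraries, the calls of SLC6A8, SOCS3, TXNRD1, CDH17 and SHH were lost and those of DNAJB1, GCLM, EGR1, CXCL8, HMGCS1 and ESD gained. Apart from the calls given beside their results, the block changed no other call over 7 libraries among the 68 genes checked under each alternative. At 12738718 to 17160555 reads, genes under about 1 CPM rest on few counts, so their fold changes are less certain than those of chaperones or sterol enzymes.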
